A study of Mus musculus with 6 samples.

Results

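Notch signalling was examined in cultured mouse myoblasts exposed to transforming growth factor beta (TGFb) through 10 genes: the receptors Notch1, Notch2 and Notch3, the ligands Jag1, Jag2 and Dll1, and the target genes Hes1, Hey1, Hey2 and Heyl. The members were the genes whose symbol stood on a non-control probe of the arrays, which gave 12 probes for the 10 genes, among 55681 probes and 36499 genes on the array. Of these, 9 genes with 11 probes passed the filter on dim probes, against 21999 genes of the whole array, and Hey2 did not. The cells were labelled primary myoblasts, a name for the dividing precursors of muscle fibres. They were purified by cell sorting from skeletal muscle of male C57BL/6 mice 3 months of age and grown in serum-containing medium. Markers of differentiated muscle were also above background on every array of both groups, as given below. One group of 3 arrays held cells given TGFb, the secreted signal that drives fibroblasts to lay down matrix, for 4 days, and the other group of 3 arrays held untreated cells. The sources used here give neither the dose of TGFb nor the number of animals behind each culture.

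Notch receptors are single-pass membrane proteins that bind Jagged and Delta-like ligands on neighbouring cells. Binding lets proteases release the receptor's intracellular domain, which enters the nucleus, joins the DNA-binding protein RBPJ and switches on target genes, among them the Hes and Hey repressors. In skeletal muscle this pathway is known for keeping satellite cells, the muscle stem cells, undifferentiated. The array measures RNA only, so receptor cleavage and protein levels were not observed. In these bulk cultures, fewer cells of a type and less RNA per cell cannot be told apart.

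Promoter sequence is shown for Jag1, because it is the member with the smallest adjusted p in both fits described here, and for Hey2, because it is the member whose window held the letters read by RBPJ. Both come from RefSeq on GRCm38.p6 and run 5′ to 3′ on the strand of the gene, with 250 bases before the annotated start and 10 bases after it. Jag1 lies at chr2:137116511-137116770 on the minus strand and Hey2 at chr10:30842774-30843033 on the minus strand. Capitals mark TGGGAA, the core of the RBPJ recognition sequence, or its reverse complement.
Jag1: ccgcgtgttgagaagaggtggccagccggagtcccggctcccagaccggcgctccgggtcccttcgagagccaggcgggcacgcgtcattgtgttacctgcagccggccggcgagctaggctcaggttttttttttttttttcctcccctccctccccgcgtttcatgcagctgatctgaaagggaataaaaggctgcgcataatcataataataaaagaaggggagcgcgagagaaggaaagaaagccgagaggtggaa
Hey2: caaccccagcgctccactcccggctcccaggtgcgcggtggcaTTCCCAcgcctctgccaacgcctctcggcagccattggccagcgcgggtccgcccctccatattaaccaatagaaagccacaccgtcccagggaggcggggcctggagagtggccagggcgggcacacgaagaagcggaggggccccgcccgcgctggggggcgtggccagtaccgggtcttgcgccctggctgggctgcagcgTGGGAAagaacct
The motif TGGGAA, on either strand, occurred in 22.4% of 32851 RefSeq promoter windows of the same length. Promoter entries matched 7 of the 10 members, and Hes1, Hey1 and Heyl had none in the table used. Among the 7, Hey2 alone held the motif, with matches that began 207 bases and 3 bases before the start. The CAGACA box read by SMAD proteins, the intracellular effectors of TGFb, occurred in 18.1% of all windows and among the members in Dll1 alone, in both of its annotated promoters. A match is a description of these windows and shows no binding.

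Values are log2 of the processed intensity relative to the 75th percentile of each array, so that 0 is the signal below which 75% of spots of that array lie. Differences are TGFb minus untreated on this scale, with SE and Benjamini-Hochberg adjusted p from limma over all 21999 genes and a threshold of 0.05. On each array, 51.96% to 56.67% of spots were well above background, and at most 77 of 59305 spots were saturated. Scanning took place on 2 days, with 1 treated and 2 untreated arrays (TGFb replicate 1, untreated replicates 1 and 2) on day 1 and the other 3 arrays on day 2. Scan day separated the arrays along the first principal component, which held 72.4% of the variance, and treatment did so along the second, with 16.3%. Each member is therefore given by group alone and from a fit that adds scan day. Slide 1 held TGFb replicate 1 with untreated replicate 2, and slide 2 held TGFb replicate 2 with untreated replicate 3. The file names carry the number 2 for both untreated replicate 1 and untreated replicate 2, so whether these were separate cultures is uncertain, and p-values measure the spread between the arrays.

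Jag1 was higher in TGFb-treated cells, Hey1 was lower and Hes1 was higher, but in the comparison by group alone none of the 9 tested members passed the threshold. This count of 0 compares with 1.36% of all tested genes called by the same limma fit. At an unadjusted p under 0.05 there were 2 members, Jag1 and Hey1, against 11.5% of all genes. In the fit with scan day, Jag1 passed as the 1 member called, against 10.1% over the array. With slide as a random block 3 members passed, Jag1, Hes1 and Hey1, against 19.4% of all genes. The 3 TGFb values did not overlap the 3 untreated values in 2 of the 9 members, Jag1 (higher) and Hey1 (lower), against 18% of all genes, with 8.51% higher and 9.48% lower. The median difference over the 9 members was 0.38, against 0.05 for the whole array, and 0.26 against 0.04 once scan day was included.

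**Figure D1:**
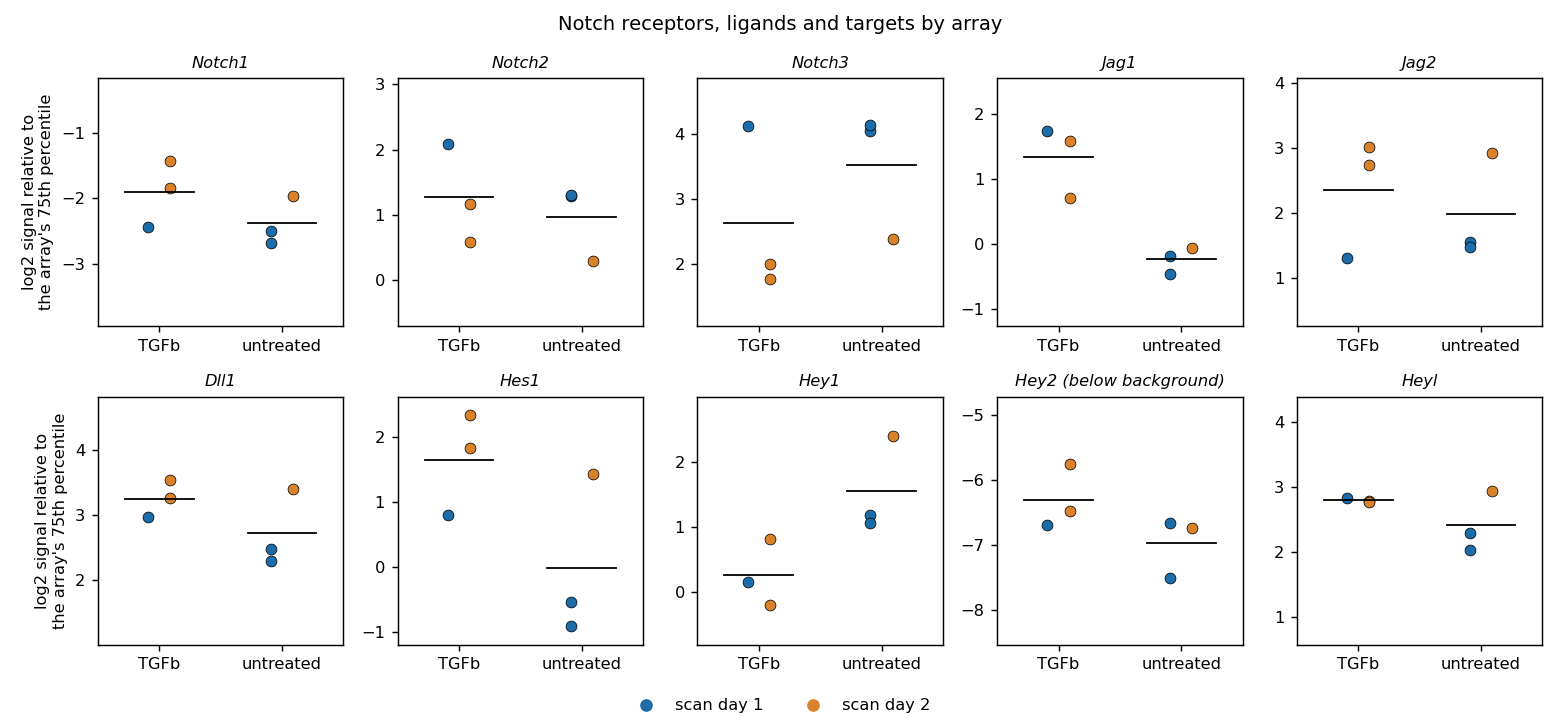
Log2 processed intensity relative to each array's 75th percentile for every member, 1 point per array, with TGFb left of untreated, colours by scan day and a line at each group mean. The 3 TGFb points of Jag1 lie between 0.71 and 1.73 and all 3 untreated points between -0.46 and -0.07, while Notch3 and Jag2 split by scan day.

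Among the ligands, Jag1 encodes Jagged1, a membrane ligand that is itself a known Notch-responsive gene in several tissues. Its probe lies at chr2:136907433-136907492 (mm9, minus strand). Jag1 measured 1.73, 1.57 and 0.71 in TGFb replicates 1 to 3, against -0.46, -0.18 and -0.07 in untreated replicates 1 to 3. Every TGFb array was above every untreated array. The means were 1.34 ± 0.55 with TGFb and -0.24 ± 0.20 untreated (SD, n = 3 each), a difference of 1.57 ± 0.36 (SE), or 2.98-fold, with a 95% interval of 0.70 to 2.44 and an adjusted p of 0.135. With scan day added Jag1 rose by 1.63 ± 0.33, with a 95% interval of 0.80 to 2.46 and an adjusted p of 0.0407. The difference was 2.05 within day 1, 1.21 within day 2, 1.92 on slide 1 and 1.64 on slide 2, the same direction each time. That call was lost in 5 of the 6 fits that left out 1 array with scan day kept in. Their adjusted p was 0.197 without TGFb replicate 1, 0.0894 without TGFb replicate 2, 0.130 without untreated replicate 1, 0.134 without untreated replicate 2 and 0.133 without untreated replicate 3. Without TGFb replicate 3, the lowest of the treated arrays, Jag1 kept the call with a difference of 1.88 and an adjusted p of 0.0104.

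The other ligands, Jag2 and Dll1, showed no difference past the threshold. Jag2, which encodes a second Jagged ligand (chr12:114146887-114146946, mm9, minus strand), measured 1.31, 2.74 and 3.02 in the TGFb replicates, against 1.55, 1.48 and 2.91 in the untreated replicates. The 3 arrays of day 2 were the 3 highest whatever the group. The difference of 0.37 ± 0.61 (adjusted p = 0.830) became -0.12 ± 0.16 with scan day added (adjusted p = 0.669), so its sign depended on that term. Dll1 encodes a Delta-like ligand that muscle cells use to signal to neighbouring precursors, and 10 spots of its probe (chr17:15504623-15504682, mm9, minus strand) were averaged. Its values were 2.97, 3.26 and 3.53 with TGFb, against 2.30, 2.49 and 3.40 untreated. Untreated replicate 3 lay among the treated arrays. The Dll1 difference was 0.53 ± 0.38 (adjusted p = 0.693), and with scan day 0.29 ± 0.20 (adjusted p = 0.417), made up of 0.58 within day 1 and -0.0019 within day 2.

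**Figure D2:**
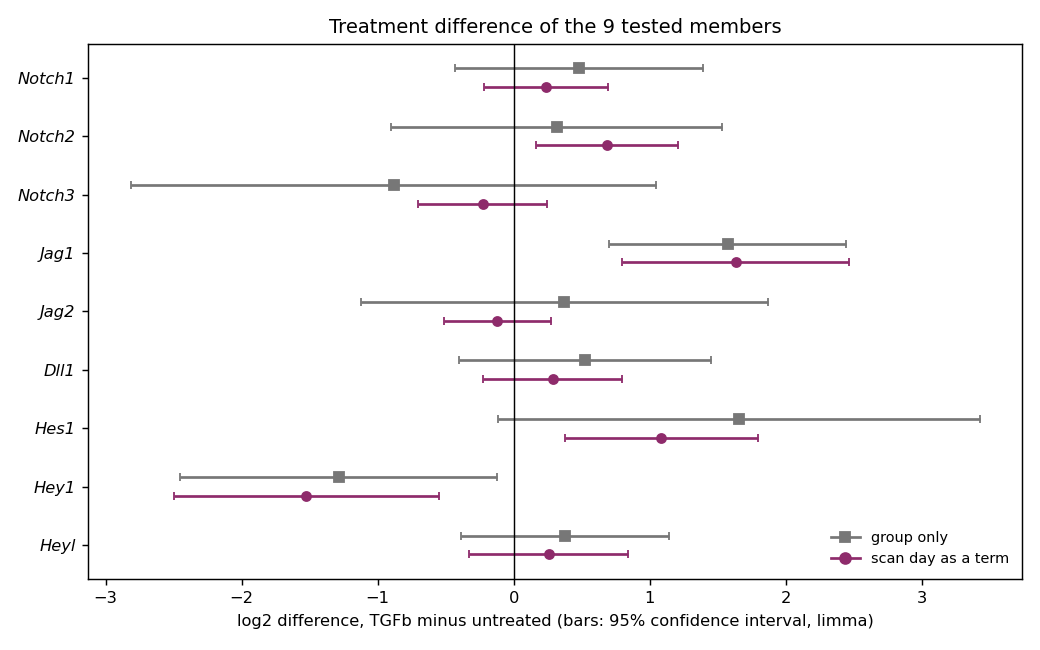
Difference TGFb minus untreated in log2 for the 9 tested members, with 95% intervals, for the fit by group alone and the fit with scan day added. Jag1 lies at 1.57 and 1.63, Hey1 at -1.29 and -1.52 and Hes1 at 1.66 and 1.09, and the interval of every member is narrower with scan day added.

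None of the 3 receptors passed the threshold in either fit. Notch1 encodes a receptor needed for satellite cell activation and self-renewal, and its brighter probe lies at chr2:26319440-26319499 (mm9, minus strand). It measured -2.44, -1.43 and -1.83 with TGFb, against -2.69, -2.50 and -1.96 untreated. The groups overlapped, since untreated replicate 3 was above TGFb replicate 1. The difference was 0.48 ± 0.37 (adjusted p = 0.716) and 0.24 ± 0.18 with scan day (adjusted p = 0.453), with a 95% interval of -0.22 to 0.69 in that fit. A second Notch1 probe (chr2:26314630-26314689) was well above background on 2 arrays of each group, averaged -4.18 with TGFb and -3.90 untreated, and had a difference of -0.28 by group alone (adjusted p over probes 0.925) and 0.46 with scan day added (adjusted p over probes 0.578). Its sign was opposite to that of the brighter probe in the first fit and the same in the second.

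Notch2 encodes a receptor that, like Notch1, has a known role in maintaining muscle stem cells. Its brighter probe (chr3:97953914-97953973, mm9, plus strand) measured 2.09, 1.17 and 0.58 in the TGFb replicates, against 1.29, 1.30 and 0.30 in the untreated replicates. Here the day 2 arrays were the lower ones within each group. The Notch2 difference was 0.32 ± 0.50 (adjusted p = 0.825), and with scan day 0.68 ± 0.21 (adjusted p = 0.108). It was 0.79 on day 1 and 0.58 on day 2. Its dimmer probe (chr3:97951233-97951292), well above background on 3 TGFb arrays and 1 untreated array, averaged -3.58 ± 0.48 with TGFb and -5.25 ± 0.31 untreated (SD, n = 3 each). That probe's difference was 1.67 with an adjusted p over probes of 0.125, and 1.59 with scan day added (adjusted p over probes 0.0441). That probe passed the filter through the treated arrays, so its difference is set against a group mostly not above background and is no support for the brighter probe, which stands for the gene.

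**Figure D3:**
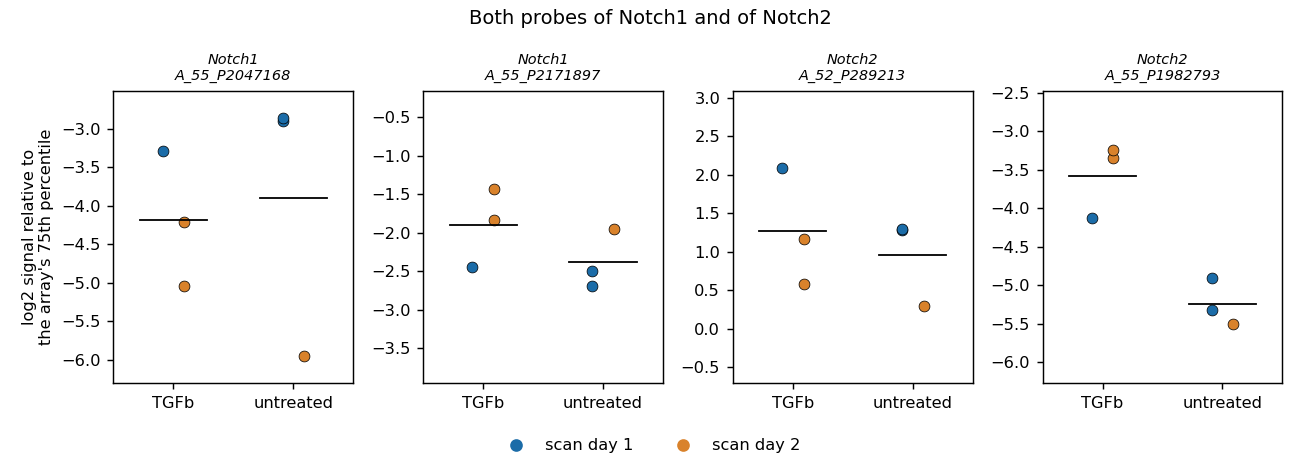
Log2 processed intensity relative to each array's 75th percentile for both probes of Notch1 and of Notch2, 1 point per array coloured by scan day, TGFb left of untreated, with a vertical axis for each probe and lines at group means. The dimmer Notch2 probe averages -3.58 with TGFb and -5.25 untreated, whereas the brighter Notch2 probe averages 1.28 and 0.96 and its groups overlap.

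Notch3 encodes a receptor that is abundant in smooth muscle and pericytes and is also found in satellite cells. Its probe (chr17:32257848-32257907, mm9, minus strand) measured 4.12, 1.77 and 2.01 with TGFb, against 4.03, 4.13 and 2.38 untreated. Every array of day 1 lay above every array of day 2, whatever the treatment. The difference of -0.88 ± 0.79 (adjusted p = 0.751) shrank to -0.23 ± 0.19 with scan day (adjusted p = 0.491), and was 0.04 within day 1 and -0.50 within day 2. Day 2 minus day 1 was -1.97 in the same fit.

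The targets Hes1, Hey1 and Heyl encode basic helix-loop-helix repressors that Notch is known to induce, and their differences had unlike signs. Hes1 (chr16:30067820-30067879, mm9, plus strand) measured 0.79, 2.32 and 1.83 in the TGFb replicates, against -0.91, -0.55 and 1.42 in the untreated replicates. On each day the treated arrays were above the untreated ones, but untreated replicate 3 (day 2) was above TGFb replicate 1 (day 1). The means were 1.65 ± 0.78 with TGFb and -0.01 ± 1.25 untreated (SD, n = 3 each), a difference of 1.66 ± 0.73 (adjusted p = 0.475). With scan day the Hes1 difference was 1.09 ± 0.28, or 2.12-fold, with an adjusted p of 0.0756, and it was 1.52 within day 1 and 0.65 within day 2.

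Hey1 (chr3:8663432-8663491, mm9, minus strand) went the other way. It measured 0.16, 0.82 and -0.20 with TGFb, against 1.19, 1.07 and 2.39 untreated. Every treated array lay below every untreated one. The means were 0.26 ± 0.52 with TGFb and 1.55 ± 0.73 untreated (SD, n = 3 each), a difference of -1.29 ± 0.48 with an adjusted p of 0.376. With scan day added it was -1.52 ± 0.39, or 2.88-fold lower with TGFb, with a 95% interval of -2.50 to -0.55 and an adjusted p of 0.0713. The difference was -0.97 within day 1, -2.08 within day 2, -0.91 on slide 1 and -1.57 on slide 2.

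Heyl, a target that is also known from vascular smooth muscle, has its probe at chr4:122926975-122927034 (mm9, plus strand). It measured 2.83, 2.78 and 2.78 with TGFb, against 2.04, 2.29 and 2.93 untreated. The treated arrays were close together, and untreated replicate 3 lay above them. The difference was 0.38 ± 0.31 (adjusted p = 0.734) and 0.26 ± 0.23 with scan day (adjusted p = 0.528). It was 0.67 on day 1 and -0.15 on day 2. Hey2, best known from heart and artery development, was not well above background on any of the 6 arrays (chr10:30552729-30552788, mm9, minus strand). Its log2 values were -6.69, -6.48 and -5.75 with TGFb, against -7.50, -6.66 and -6.74 untreated, and it has no fold change here.

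**Figure D4:**
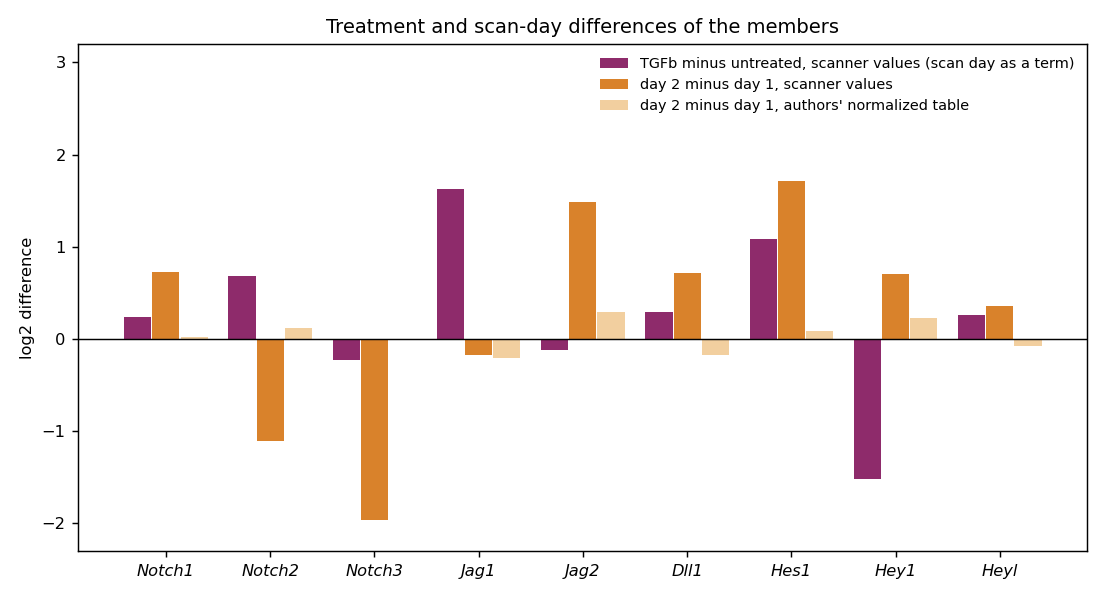
Bars of log2 differences for the 9 tested members: TGFb minus untreated and day 2 minus day 1 in the scanner values, both from the fit with scan day, and day 2 minus day 1 in the authors' deposited table. The day bars of Notch3 (-1.97), Jag2 (1.48) and Hes1 (1.72) are the longest in the scanner values, and that of Jag1 (-0.17) is the shortest.

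In that fit, the scan-day difference was larger than the treatment difference in 7 of the 9 tested members, with Jag1 and Hey1 as the exceptions. The treatment difference had the same sign within both days in 6 of 9 members, against 67.9% of all genes. On both slides it had the same sign in 7 of 9, which counts Notch3 at only -0.0055 on slide 1. The share of all genes was not computed for slides. Jag2, Hes1, Dll1, Notch1, Hey1 and Heyl were higher on day 2, and Notch3, Notch2 and Jag1 were lower. Day 1 held 1 treated and 2 untreated arrays, and day 2 held 2 treated and 1 untreated array.

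The authors' deposited table of normalized log2 values carried much smaller differences between days, with a median absolute difference of 0.143 over the tested genes, against 0.786 in the scanner values scaled here. In a limma fit by group alone on the authors' deposited table, 4 of the 9 members passed, 3 higher and 1 lower, against 15% of all genes (7.17% higher and 7.79% lower). In that table Jag1 was 12.39, 12.08 and 11.23 with TGFb, against 10.06, 10.35 and 10.52 untreated, a difference of 1.59 ± 0.29 (adjusted p = 0.0119). Hes1 in the authors' deposited table was 11.89, 11.85 and 11.36 with TGFb, against 10.31, 10.59 and 10.90 untreated, with no overlap and a difference of 1.09 ± 0.21 (adjusted p = 0.0129). Hey1 fell by 1.36 ± 0.27 in the authors' deposited table (adjusted p = 0.0158). Notch2 differed by 0.74 ± 0.18 in the authors' deposited table (adjusted p = 0.0330), with 12.07, 12.38 and 11.76 with TGFb, against 11.21, 11.30 and 11.50 untreated. The other 5 members did not pass there, with differences of 0.18 for Notch1, -0.15 for Notch3, 0.04 for Jag2, 0.29 for Dll1 and 0.28 for Heyl. The sources used here do not say how that table was normalized. Its differences for Jag1, Hes1, Hey1 and Notch2 had the same sign as those of the scanner values with scan day added.

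A list of 48 other genes of the pathway (further ligands and receptors, proteases, glycosyltransferases, the nuclear complex, other targets, and ubiquitination and endocytosis factors) had 47 on the array and 44 tested. By group alone, 1 was lower and none higher, against 0.677% of all genes lower and 0.686% higher. With scan day added 2 were higher and 5 lower, against 4.59% of all genes higher and 5.53% lower. The median difference over the 44 genes was 0.05 in the first fit and 0.01 in the second. Dtx4, which encodes a Deltex ubiquitin ligase that acts on Notch trafficking, measured -0.14, -0.41 and -0.11 with TGFb, against 1.35, 1.26 and 1.36 untreated. It fell by 1.54 ± 0.24 (adjusted p = 0.0486) by group alone and by 1.53 ± 0.16 with scan day (adjusted p = 0.00656), although leaving out any 1 array ended the call by group alone.

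The non-canonical ligands Dlk1, Dlk2 and Dner, membrane proteins that lack the domain by which Delta and Jagged activate the receptors, were lower with TGFb once scan day was a term. Dlk1, an imprinted gene also studied in muscle growth, was -0.83, 0.31 and 0.01 with TGFb, against 2.18, 2.17 and 1.98 untreated. Its difference was -2.28 ± 0.36 (adjusted p = 0.0503) by group alone and -2.41 ± 0.30 with scan day (adjusted p = 0.0103), and both of its probes were lower. Dner fell by 2.59 ± 0.20 with scan day (adjusted p = 0.00314), against an adjusted p of 0.356 by group alone. Dlk2 fell by 0.87 ± 0.16 with scan day (adjusted p = 0.0302). In the same fit Dll3, whose product inhibits Notch within the cell, had a difference of 1.08 (adjusted p = 0.0307), but it was well above background on 1 TGFb array and 2 untreated arrays.

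Fbxw7 encodes the F-box protein that marks the Notch intracellular domain for degradation. It measured 0.98, 0.58 and 0.90 with TGFb, against 0.18, 0.22 and -0.26 untreated, and rose by 0.89 ± 0.16 with scan day (adjusted p = 0.0314), against 0.354 by group alone. Neurl2, a Neuralized family gene expressed in muscle, was 2.14, 1.94 and 2.20 with TGFb, against 2.97, 2.87 and 2.82 untreated, and fell by 0.76 with scan day (adjusted p = 0.0376). None of the 9 tested proteases, 5 glycosyltransferases, 7 genes of the nuclear complex or 5 further targets passed in either fit. This holds for the probe that stood for each gene. A second probe of the glycosyltransferase Mfng fell by 0.95 with scan day (adjusted p over probes 0.0440), against 0.98 (0.126) for its main probe.

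Rbpj, the DNA-binding partner of the intracellular domain, had a difference of -0.20 by group alone (adjusted p = 0.912) and 0.23 with scan day (adjusted p = 0.754). A second Rbpj probe had -0.30 by group alone and -0.21 with scan day (adjusted p over probes 0.748), so the sign with scan day depended on the probe. For Lfng, a glycosyltransferase that alters ligand choice, the differences were 0.03 and -0.09. Numb, an inhibitor of Notch, had 0.22 and 0.01, and the receptor Notch4 had 0.16 and 0.07. Dll4, a ligand of endothelium, measured 0.32, -4.24 and -4.56 with TGFb, against -0.73, 0.24 and -5.29 untreated. Its arrays separated by scan day, and its difference with that term was 0.73 (adjusted p = 0.209).

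**Figure D5:**
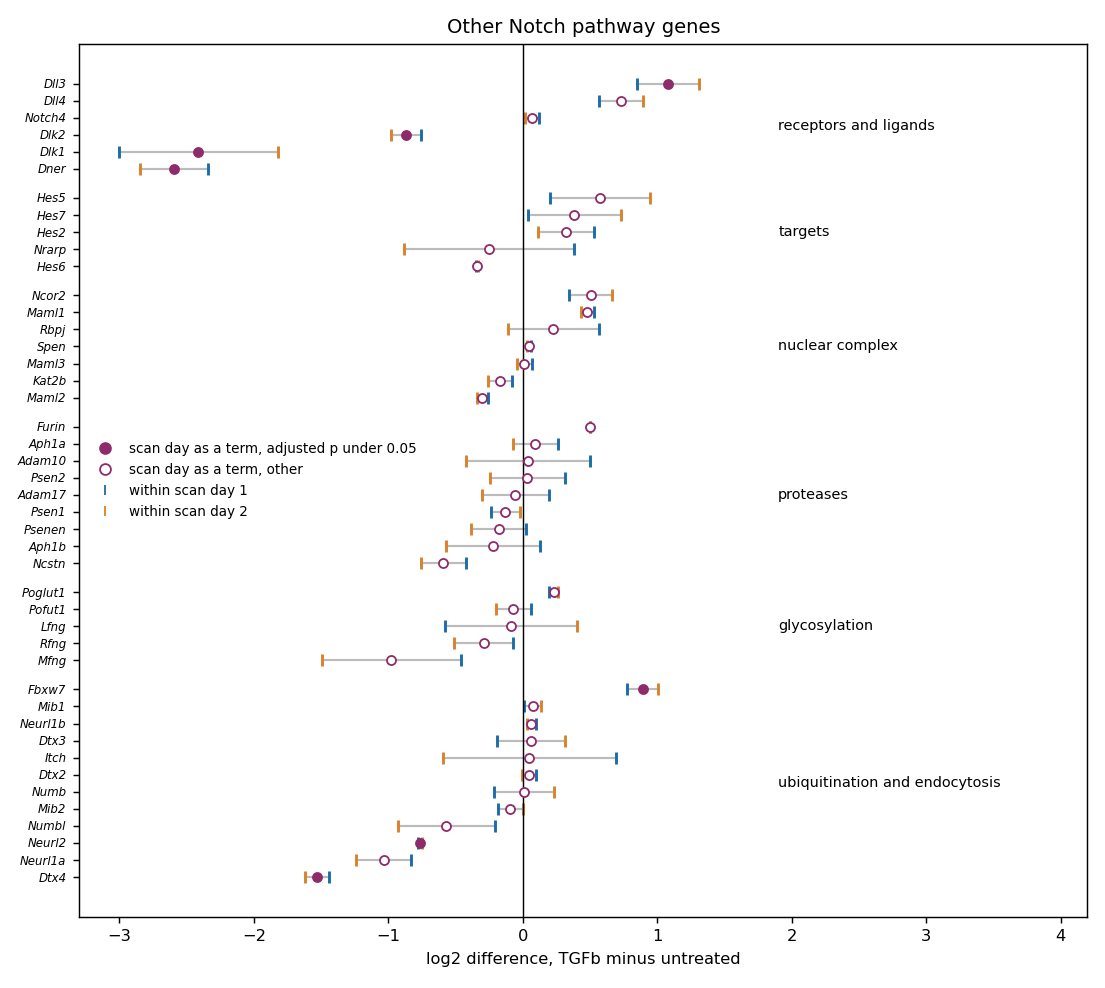
Difference TGFb minus untreated in log2 for the 44 other pathway genes, by role, from the fit with scan day added; filled points passed the threshold, and ticks mark the values within day 1 and within day 2. Dner, Dlk1, Dtx4, Dlk2 and Neurl2 lie below zero and Dll3 and Fbxw7 above it.

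The 3 genes whose pattern over the 6 arrays was most like that of Jag1 were Pla1a, Fam78b and Tspan18. Likeness was the root mean square difference of log2 values centred on each gene's mean, among 12373 genes detected above background on every array, without clone names, predicted names and names all in capitals, and it was 0.182, 0.198 and 0.209 for these genes. Pla1a, which encodes a secreted phospholipase, was 1.09, 1.03 and -0.14 with TGFb, against -0.73, -0.65 and -0.46 untreated.

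The cells were checked against markers of muscle and of other cells that use Notch. Of 9 myoblast markers, 8 exceeded background on all 6 arrays while Myf5 did so on at most 1, and all 6 markers of differentiated muscle were detected throughout. Of 8 endothelial markers, 3 were above background on all arrays, and Tek, Emcn, Tie1 and Esam were so on none. Their summed level, as log2 of the sum relative to the 75th percentile, ranged over 2.35 to 2.68 with TGFb and over 2.88 to 3.04 untreated. Each of the 4 tested endothelial markers overlapped between the groups, and none passed in either fit. The sum was carried by Egfl7 and Kdr. Kdr split by scan day, at 1.49, -1.52 and -1.48 with TGFb and 1.23, 1.61 and -1.99 untreated. Of 7 pericyte and smooth muscle markers, 5 were above background on all arrays, while Myh11 and Kcnj8 were so on none, and the summed level ranged over 5.62 to 8.72 with TGFb and 5.10 to 8.33 untreated. That sum was carried mostly by 1 Mcam probe that split by scan day, at 5.01, 8.16 and 8.57 with TGFb and 4.83, 4.73 and 8.26 untreated. With scan day its difference was 0.17, against 1.18 for a second Mcam probe (adjusted p over probes 0.0386). With scan day added, the pericyte marker Rgs5 was higher by 1.57 (adjusted p = 0.0169) and Abcc9 fell by 2.64 (adjusted p = 0.00277). Of 7 fibroblast markers, 4 were above background on all arrays, with a summed level of 1.46 to 2.37 with TGFb and 0.99 to 1.75 untreated. Of 6 blood markers, 3 were above background throughout, with a summed level of 4.02 to 6.87 with TGFb and 4.00 to 6.04 untreated, and 1 of 4 Schwann cell markers was, at -2.62 to -1.32 with TGFb and -2.25 to -2.14 untreated. The blood sum was carried by 1 Itgam probe, at 3.97, 6.65 and 6.87 with TGFb and 3.95, 3.98 and 6.03 untreated, and a second Itgam probe that passed the filter had a difference of -1.67, opposite in sign. Ptprc, Cd68 and Adgre1 did not pass the filter. Of the 6 markers of differentiated muscle, 3 were lower and none higher with scan day added: Ckm fell by 1.53 (adjusted p = 0.00970), Acta1 by 1.24 (adjusted p = 0.0171) and Tnnt3 by 1.65 (adjusted p = 0.00486). Over all genes, 5.53% were called lower and 4.59% higher in that fit. In 5 of the 6 every treated array lay below every untreated one, against 9.48% of all genes. The probe that stood for Myh3 had a difference of -0.26 with scan day (adjusted p = 0.463). A second Myh3 probe, above background on all 6 arrays, had -1.17 (adjusted p over probes 0.0247). Of 8 tested myoblast markers, Des fell by 1.28 with scan day (adjusted p = 0.0102). The Ncam1 probe that stood for its gene rose by 1.29 (adjusted p = 0.0106). The other Ncam1 probes, also above background on all 6 arrays, were opposite in sign with scan day. Their differences were -1.22 (adjusted p over probes 0.0282) and -0.65 (adjusted p over probes 0.166), so the direction of Ncam1 depended on the probe. By group alone, Abcc9 was the 1 marker of these lists to pass (adjusted p = 0.0150). The markers of differentiated muscle summed to 9.18 to 9.97 with TGFb and 10.03 to 10.44 untreated, and those of myoblasts to 8.83 to 9.78 with TGFb and 8.99 to 9.73 untreated. The part of these cell types and of muscle differentiation in the values of Jag1, Hes1, Hey1 and Notch3 was not tested.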

How the data were processed

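Cy3-labelled RNA was hybridised to 1-colour Agilent arrays, 3 of TGFb-treated and 3 of untreated myoblasts. The authors deposited scanner files with the intensity of each spot and its background and outlier flags, extracted with Agilent Feature Extraction 10.7.3.1 per the file headers, which give probe coordinates on mm9. They also deposited a table of normalized log2 values, whose columns have medians of 7.11 to 7.12 and correlate best with the log2 mean signal of their own array (r of 0.992 to 0.993 across spots). Its log2 scale and direction were taken from that comparison, and its normalization and centring stay unknown.

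Control spots were dropped, as were 176 to 365 outlier spots per array. Each array's 75th percentile (intensity 876 to 1569) was subtracted after log2, and spots of a probe were averaged. A probe well above background on at least 3 of 6 arrays was tested, and the probe with the highest mean stood for its gene. RefSeq accessions named 26300 of the 55681 probes, and 2839 names changed. The exon or UTR position of the probes was not analysed here. No array of a kept member was saturated, and the small number of arrays limits the precision.

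The comparison used limma 3.58.1 (R 4.3.3), by group alone and with scan day as a term, with Benjamini-Hochberg adjustment over all genes. The tests were tried on simulated data of 21999 genes that kept the scan-day differences. Of 50 genes changed by 2 in log2, the fit by group alone recovered 0 with 0 false calls. The fit with scan day recovered 27, with 2 false calls over all sizes. Group alone also recovered 0 at a change of 3, although it called 300 genes in the data. Only 50 genes were changed at each size, whereas the fit with scan day called 2226 genes in the data. Recovery depends on that share, so these counts do not give the power in the data. Alternatives covered background correction, normalization, filter, probe choice, slide, replicate block and leaving out each array. All members were named, with pathway genes past the threshold in either fit, Rbpj, Notch4, Dll4, Lfng and Numb, and the 3 genes most like the member with the smallest adjusted p. The members and lists were chosen with earlier results of these data known. Deviations from the group means correlated at 0.81, -0.72 and 0.69 between the groups for replicates 1 to 3. The arrays of replicate 1 shared scan day 1 and those of replicate 3 shared day 2, whereas those of replicate 2 were scanned on different days. Scan day was not removed from these deviations, so the correlations cannot decide whether the labels' replicate numbers pair the samples.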

Additional observations from a re-analysis of the deposited data

How the results depend on the processing

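Of 243 alternative values of single members, 202 kept their direction and side of the threshold, 23 kept the direction and passed, and 18 changed sign. No member was called by group alone, so no alternative could lose such a call. Of the members, the number called by group alone was 0 with quantile normalization (1.6% of all genes called) and with normexp and quantile normalization (1.81%). It was also 0 without the filter (0.74%), with the filter on all 6 arrays (1.32%) and with adjustment over all probes (1.2%). The number stayed 0 with the mean of probes (1.8%), with the replicate block (0.00909%) and without any 1 array (0% to 0.877%). It was 4 in the authors' deposited table (15% of all genes called; 3 with scan day, 15.5%), 1 with scan day as a term (10.1%) and 3 with slide as a random block (19.4%; consensus correlation 0.881). With scan day and 1 array left out it was 0 to 4, the 4 (Jag1, Notch2, Hey1 and Hes1) without TGFb replicate 3, where 15% of all genes were called, against 1.49% to 7.97% in the other 5 fits. With scan day and settings added after seeing the data it was 1 with quantile normalization (11.8% of all genes), 3 with normexp and quantile normalization (14.4%), 2 with the filter on all 6 arrays (13.9%) and 2 with the mean of probes (10.5%). With the mean of probes the 2 were Jag1 and Notch2, and the Notch2 mean takes in its dimmer probe.

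The count of other pathway genes called was 1 of 44 by group alone, against 1.36% of all genes. It was 2 with quantile normalization, with normexp and quantile normalization, with the filter on all 6 arrays and with the mean of probes. In these settings 1.32% to 1.81% of all genes were called. It was 0 without the filter, over all probes, with the replicate block and without any 1 array, where at most 1.2% of all genes were called. It was 10 of 44 in the authors' deposited table, against 15% of all genes (also 10 with scan day, against 15.5%). It was 7 of 44 with scan day, against 10.1%, and 7 of 44 with slide as a random block, against 19.4%. With scan day and 1 array left out it was 2 to 8, against 1.49% to 15% of all genes. The 8 came without TGFb replicate 3, where 15% of all genes were called. With scan day and added settings, where the shares of all genes are those given above, it was 9 with quantile normalization, 10 with normexp and quantile normalization, 7 with the filter on all 6 arrays and 8 with the mean of probes.

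Sign changes concerned Jag2 in 13 cases: -0.12 with scan day (also with the filter on all 6 arrays or the mean of probes), -0.082 with slide as a random block, -0.059 in the authors' deposited table with scan day, -0.061 with quantile and -0.049 with normexp and quantile normalization with scan day, and, with scan day and without TGFb replicates 1, 2 and 3 and untreated replicates 1, 2 and 3 in turn, -0.035, -0.073, -0.19, -0.094, -0.12 and -0.21. By group alone with 1 array left out, Notch2 lay between -0.088 (without TGFb replicate 1) and 0.66 (without TGFb replicate 3) and was -0.018 without untreated replicate 3. With the mean of its probes Notch2 was 0.99 by group alone (adjusted p = 0.229) and 1.14 with scan day (adjusted p = 0.0227). That mean takes in the dimmer Notch2 probe, which passed the filter through the treated arrays, so it is no support for the brighter probe. With scan day and without TGFb replicate 1, Dll1 was -0.0019 and Heyl -0.15, and Notch3 was 0.042 with scan day and without untreated replicate 3. The cause was not tested. Over all genes, the replicate block left 2 calls of 300, and the fits by group alone without 1 array left 0 to 193. Hey2, below background on every array, entered only the fit without the filter.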
